A study of Rattus norvegicus with 11 samples.

Results

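Expression of the serotonin receptor genes was described in the medial prefrontal cortex of 11 rats, with 1 single-colour array per rat. All non-control probes whose gene name on the array was Htr1a, Htr1b, Htr1d, Htr2a, Htr2c, Htr3a, Htr4, Htr5a, Htr6 or Htr7 were taken, and these 10 of the array's 35561 gene and transcript names covered 14 of the 41012 non-control probes. Htr2a had 4 probes, Htr7 had 2 and each of the other genes had 1. In the heroin group, 6 male rats had given themselves heroin through a jugular catheter by licking a spout. In the yoked saline group, 5 male rats received saline whenever their matched animal received heroin, so these animals were drug-naive. Rats of both groups were 4 months old, had 14 days of abstinence and were returned to the chambers for an extinction session without drug immediately before the brain was removed. Their strain is not given in the sources used here. The sample numbered 1 in the saline group was not analysed here. The tissue was a block of cortex with all of its cell types, and fewer cells of a type and less RNA per cell cannot be told apart in it.

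Serotonin reaches the cortex through axons of the raphe nuclei of the brainstem, and cortical cells read it through receptors of several families. Most are G protein-coupled. The Htr1 and Htr5 receptors couple mainly to inhibitory G proteins, the Htr2 receptors couple to Gq and phospholipase C, and the Htr4, Htr6 and Htr7 receptors stimulate adenylyl cyclase. Htr3a encodes a subunit of a cation channel that serotonin opens directly. In the prefrontal cortex Htr2a is known mainly from pyramidal neurons, where hallucinogens act on it, and Htr3a is known from a class of inhibitory interneurons.

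Each signal is given in array medians, that is, the background-corrected intensity of the probe divided by the median intensity of all non-control probes on the same array. A probe counts as detected on an array if the image software flagged its signal as clearly above background. This held for 28185 to 33209 probes per heroin array and 30098 to 33835 per saline array, and the 25555 probes found on all arrays with enough usable spots were tested. With this scaling the median tested probe was 0.18 higher in the heroin rats on the log2 scale, against 0.01 after quantile normalization and -0.03 after scaling to the 75th percentile, so changes below are read against those shifts. Each saline array shared its scan with the heroin array of the same number, while the heroin array of number 1 was scanned without a partner. Heroin arrays always lay at 1 position of the slide and saline arrays at another, so position and group cannot be told apart. With this scaling 78.7% of all tested probes were above 0, that is, higher on average in the heroin rats. Saline replicate 5 stood apart in the striatal markers Adora2a and Rgs9, though not in all of those listed. Its Adora2a signal was 5.92 array medians against 1.75 to 2.31 in the other saline rats. Its Rgs9 signal was 13.3 against 3.03 to 4.91. Its Drd1a signal was below that of heroin replicate 5, by 0.23 on the log2 scale. Ppp1r1b spanned only 1.82 to 2.49 array medians in the saline rats. The differences of Htr2a and Gnai1 are given without saline replicate 5 as well.

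The probes decide which part of a receptor transcript was read, so those on which the results turn are shown first. The stretches that follow are 30 bases of the 60-base Htr2a, Htr3a and Htr7 probes, 5′ to 3′, and the capitals mark the 26 bases that a pair of Htr2a probes share.
Htr2a A_44_P508280: accagttcgatttctttcttaactgattca
Htr2a A_43_P11882: tgaaaccgtgaatgaaaaggttagctgtgt
Htr2a A_44_P513102: aaacCAGAAATCAAATTACTATCATCTTAT
Htr2a A_44_P513101: CAGAAATCAAATTACTATCATCTTATgctg
Htr3a A_44_P540908: cataagcaggatttacagcgccctgtacct
Htr7 A_44_P371317: gcagaaagggttcctttgtggatagtatcc
Htr7 A_44_P412178: gtggctgggctatgcaaactctctcattaa

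On the array's own map, build rn3, the brightest Htr2a probe A_44_P508280 lay on the plus strand at chr15:55549339-55549398. Probe A_43_P11882 lay 1330 bases upstream of it, at chr15:55547949-55548008, and was spotted 10 times per array. All of its 3 reading frames held a stop codon, so it was not wholly coding sequence. A_44_P508280 had 1 spot per array. Of the Htr2a probes, only A_43_P11882 was linked through its record to a RefSeq transcript of the gene. The overlapping pair, A_44_P513102 and A_44_P513101, lay a further 69139 bases upstream, at chr15:55478716-55478775 and chr15:55478750-55478809, and both came from 1 transcript record. The Htr3a probe lay on the minus strand at chr8:52181570-52181629. The brighter Htr7 probe A_44_P371317 lay on the minus strand at chr1:240308991-240309050, 10267 bases downstream of A_44_P412178 at chr1:240319318-240319377. No annotation of this build was used here, so exons and untranslated regions were not assigned. The level of a probe was not set against that of another, since probes differ in how well they bind.

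The 3 Htr1 probes are shown whole because they read sequences that correspond to each other in related receptors. Capitals mark the 20 bases that agreed in all 3 when each was laid without gaps on the Htr1a probe.
Htr1a A_43_P15468: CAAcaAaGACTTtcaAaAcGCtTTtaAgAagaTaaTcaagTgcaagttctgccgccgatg
Htr1b A_43_P15558: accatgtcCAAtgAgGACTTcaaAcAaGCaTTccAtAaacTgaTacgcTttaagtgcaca
Htr1d A_43_P15445: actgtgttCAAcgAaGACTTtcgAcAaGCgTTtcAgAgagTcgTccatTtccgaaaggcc

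Pairs of these 3 probes were identical at 53.8% to 57.7% of the overlapping bases. The longest run that any of the 14 receptor probes shared with a probe of another gene was 17 bases, for Htr4, and it was 13 to 15 bases for the others.

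Of the 10 genes, Htr2a, Htr3a and Htr7 were detected on all 11 arrays and were tested. None passed both thresholds used here, an unadjusted limma p under 0.02 and a difference of at least 1.4-fold, where 694 of the 25555 tested probes (2.72%) did, with 458 (1.79%) up and 236 (0.923%) down after heroin. No tested probe of any gene reached a limma adjusted p under 0.05 (0%), while 4729 had an unadjusted p under 0.05. Nor did any probe reach it by the methods' t-test, with 4134 at an unadjusted p under 0.05. The ranges of the heroin and saline rats overlapped for all 14 receptor probes. They did not overlap for 1.60% of the 25252 tested probes with a value on every array, a set without the receptor probes that were not tested. Htr2a lay closest to the thresholds, just outside the one for p.

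**Figure D1:**
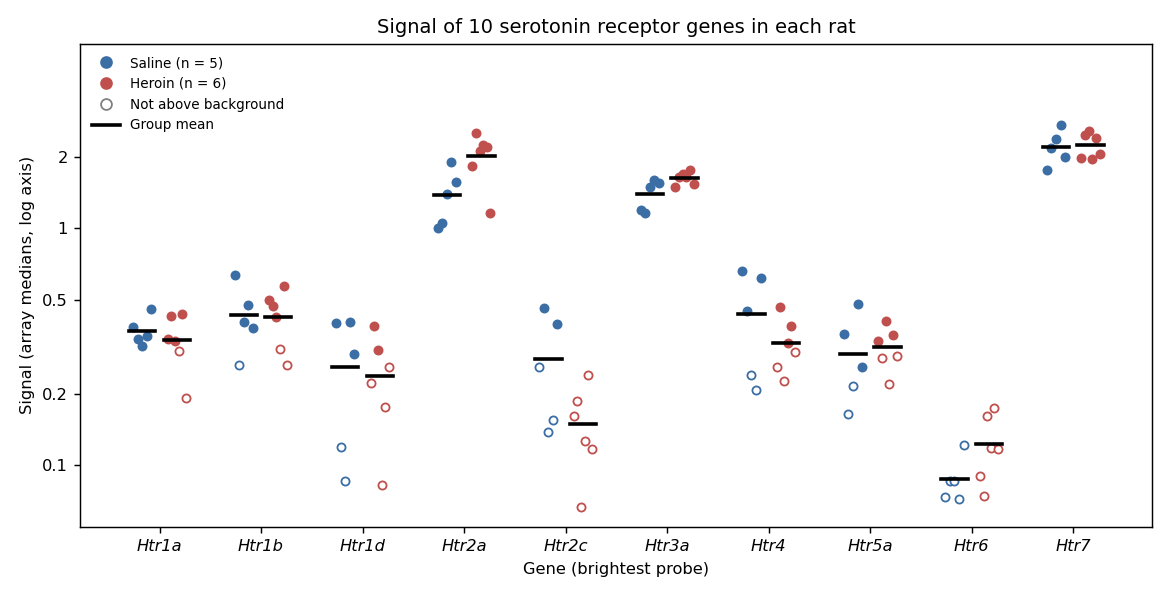
Signal of the brightest probe of each serotonin receptor gene in each rat, in array medians on a log axis, with filled points where the probe was above background, open points where it was not, and bars at the group means. Htr2a, Htr3a and Htr7 were above background in every rat and Htr6 in none, and the 2 groups overlap in every gene.

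Htr2a encodes the Gq-coupled receptor of the cortical pyramidal cell. Its brightest probe read 1.0, 1.05, 1.39, 1.91 and 1.57 array medians in saline replicates 2 to 6. In the 6 heroin rats the lowest value was 1.16, the median 2.17 and the highest 2.53. Of the heroin rats, 4 were above every saline rat, and heroin replicate 6, which had the dimmest array of all with a median intensity of 42.7, was below 3 of the saline rats. The group means were 2.02 ± 0.475 (SD, n = 6) and 1.38 ± 0.379 (SD, n = 5), a log2 difference of 0.54 with a standard error of 0.21 and a 95% interval of 0.09 to 1.0. The limma p was 0.022 and adjusted p = 0.263, and the exact permutation test over 462 divisions of the rats, two-sided, gave p = 0.0606. After quantile normalization the difference was 0.49 with a limma p of 0.0383. It was 0.33 after scaling to the 75th percentile, 0.36 with normexp background correction and 0.35 after centring on the tested probes, each below 1.4-fold.

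The call on Htr2a turned on single rats. Without heroin replicate 6 the log2 difference was 0.70 with a limma p of 0.00143. Without saline replicate 5 the difference was 0.67 with a limma p of 0.00746. Both were past the thresholds. Among all probes 821 passed both thresholds without heroin replicate 6 and 2356 without saline replicate 5, against 694 with all rats. The Htr2a call without saline replicate 5 thus came in a run where many more probes of all genes passed. Saline replicate 5 is the rat with the high Adora2a and Rgs9 signals, and the part of striatal tissue in the Htr2a values was not tested. Leaving out any other rat gave differences of 0.44 to 0.60, none of them past both. Within the shared scans of replicates 2 to 6, the heroin rat was higher by 1.33, 1.03, 0.69 and 0.20 on the log2 scale in the first 4 pairs, and the difference was -0.44 in the pair numbered 6. With the replicate number as a block the difference was 0.56 and the limma p 0.026. Heroin replicate 1, which has no saline rat of its number, does not enter that difference. Of 7 listed markers of cortical excitatory neurons 3 were on the array (Slc17a7, Camk2a and Nrgn), and all were detected in every rat. Their sum, most of it Nrgn, was 268 to 386 array medians in the heroin rats and 234 to 323 in the saline rats. None passed both thresholds. Their log2 differences were all above 0 with this scaling, with a median of 0.31 that was 0.15 after quantile normalization, where Nrgn turned to -0.11, as it did with the 75th percentile (-0.08) and after centring on the tested probes (-0.06). Camk2a, a kinase of these neurons, gave 0.49 with a limma p of 0.0552, and 0.26 after quantile normalization. The part of such cells in the Htr2a values was not tested.

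None of the other Htr2a probes was higher to that extent in the heroin rats. Probe A_43_P11882 read 0.889, 0.594, 0.806, 0.904 and 0.855 array medians in saline replicates 2 to 6, and 0.541 to 0.977 in the heroin rats with a median of 0.787. The saline values thus lay within the heroin range. Its log2 difference was -0.07 (standard error 0.17) with a limma p of 0.683 and a 95% interval of -0.43 to 0.29. As each array carried 10 spots of it, the spread of the measurement itself could be read: the median SD among spots was 0.172 on the log2 scale, or 0.0543 as the error of the mean, against an SD among rats of 0.313 in the heroin and 0.249 in the saline group.

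Probe A_44_P513102 read 0.252 to 0.681 array medians in the heroin and 0.300 to 0.503 in the saline rats, with a log2 difference of 0.03 (standard error 0.21) that was below 0 after scaling to the 75th percentile (-0.19). Its overlapping partner A_44_P513101 was detected in 1 heroin and 1 saline rat only and was not tested. The log2 difference of this partner was -0.65 (standard error 0.33, exact permutation p = 0.117), opposite in sign to that of the brightest probe. Nearly all of its values were below the background limit, and 1 of 11 was at the floor of 5 intensity units. Thus 2 probes that share 26 bases differed in whether they were above background.

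The ratio of 2 probes on the same array does not depend on a factor applied to the whole array, though it does change with quantile normalization. The log2 ratio of A_44_P508280 to A_43_P11882 was 1.36 ± 0.256 (SD, n = 6) in the heroin and 0.75 ± 0.340 (SD, n = 5) in the saline rats, a difference of 0.61. It ranged from 1.04 to 1.70 in the heroin and from 0.17 to 1.08 in the saline rats. Only the highest saline rat, which was saline replicate 5, and the lowest heroin rat overlapped. The ratio was not tested without saline replicate 5. The exact permutation test, two-sided, gave p = 0.00866 in this comparison, which was 1 of 4 such ratios within Htr2a and Htr7 and was described after their values had been seen. The exact p of the other 3 ratios was 0.206, 0.745 and 0.82. After quantile normalization the difference in this ratio was 0.50 (exact p = 0.0195), with ranges of 0.97 to 1.78 in the heroin and 0.21 to 1.03 in the saline rats. As the pair was picked for its difference, these p-values are no independent evidence of unequal change. Over the 11 rats the log2 signals of these 2 Htr2a probes had a Pearson r of 0.449, which was -0.18 for A_44_P508280 with A_44_P513102. These values share the array and its scaling and are given as a description.

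**Figure D2:**
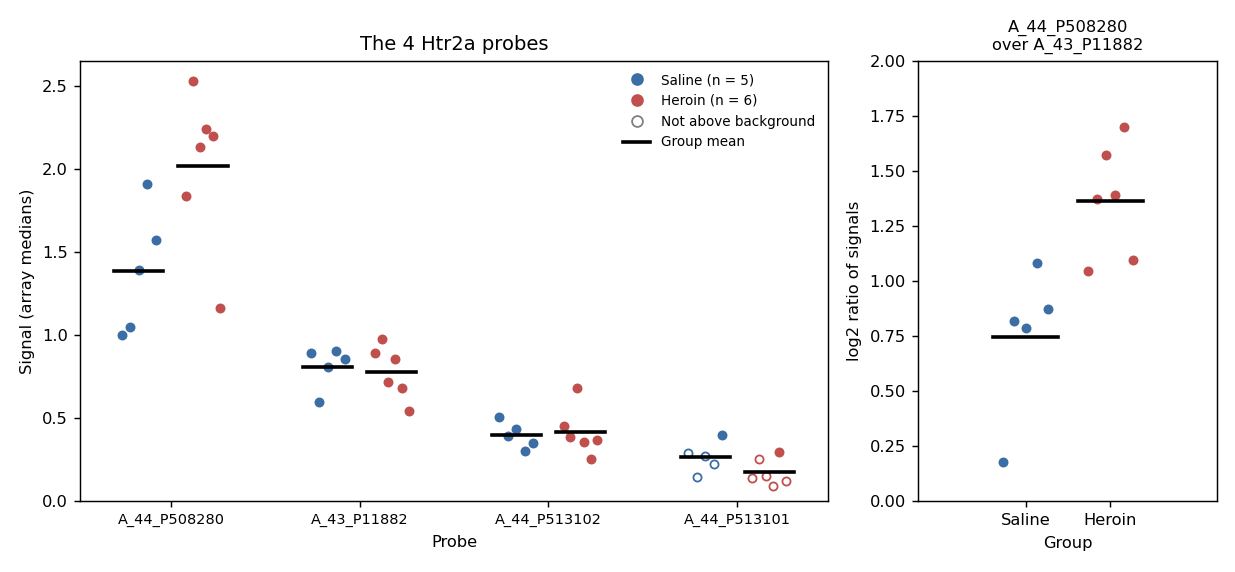
Left, signal of the 4 Htr2a probes in each rat, in array medians, with open points where the probe was not above background and bars at the group means. Right, the log2 ratio of the first to the second probe in each rat, which ranged from 1.04 to 1.70 in the heroin and from 0.17 to 1.08 in the saline rats.

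The channel subunit Htr3a was also higher on average in the heroin rats, without passing the test. It read 1.2, 1.16, 1.49, 1.6 and 1.56 array medians in saline replicates 2 to 6, and 1.5 to 1.76 in the heroin rats with a median of 1.64. Again 4 of 6 heroin rats were above every saline rat, and no heroin rat was as low as saline replicates 2, 3 and 4. The group means were 1.63 ± 0.0968 (SD, n = 6) and 1.4 ± 0.203 (SD, n = 5). The log2 difference of 0.23 (standard error 0.12, 95% interval -0.04 to 0.49) had a limma p of 0.0868 and an adjusted p = 0.300, and the exact permutation test, two-sided, gave p = 0.0281. It was 0.17 after quantile normalization and 0.01 after scaling to the 75th percentile. Within the shared scans the heroin rat was higher in 4 of 5 pairs, by 0.14 to 0.54, and the difference was -0.02 in the pair numbered 6.

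Of 8 listed interneuron markers 7 were tested. All 7 were above 0 with this scaling, as were 78.7% of all tested probes, with a median log2 difference of 0.31 that was 0.07 after quantile normalization. Lhx6, the marker that was not tested, was detected in 1 heroin and 4 saline rats and gave -0.53 (exact permutation p = 0.0887). A single marker, Vip, passed both thresholds, where 2.72% of all tested probes did. Vip encodes a neuropeptide of a subset of the interneurons in which Htr3a is known. It read 100.1 array medians on average in the heroin and 71.5 in the saline rats, a log2 difference of 0.49 with a limma p of 0.00207 and adjusted p = 0.263. Its difference was below 1.4-fold under the other scalings computed for it, with 0.25 after quantile normalization, 0.27 with the 75th percentile and 0.30 after centring on the tested probes, and with normexp (0.48). The list summed to 343 to 462 array medians in the heroin and 259 to 372 in the saline rats. The part of these cells in the Htr3a values was not tested.

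Htr7, which stimulates adenylyl cyclase, differed least of the 3 tested genes with this scaling. Its brighter probe read 1.76, 2.18, 2.39, 2.73 and 2.00 array medians in saline replicates 2 to 6 and 1.97 to 2.57 in the heroin rats, with a median of 2.23, so the heroin rats lay within the saline range. The means were 2.24 ± 0.271 (SD, n = 6) and 2.21 ± 0.369 (SD, n = 5). The log2 difference was 0.03 with a 95% interval of -0.27 to 0.33 and a limma p of 0.846, and it was below 0 after quantile normalization (-0.10), normexp background correction (-0.02) and scaling to the 75th percentile (-0.19). The second Htr7 probe gave -0.01 with an interval of -0.37 to 0.35, and 0.13 after quantile normalization. Here too the heroin values, 0.428 to 0.693 array medians, lay within the saline range of 0.420 to 0.806. A log2 difference of 0.54, as at the brightest Htr2a probe, lay outside both intervals.

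**Figure D3:**
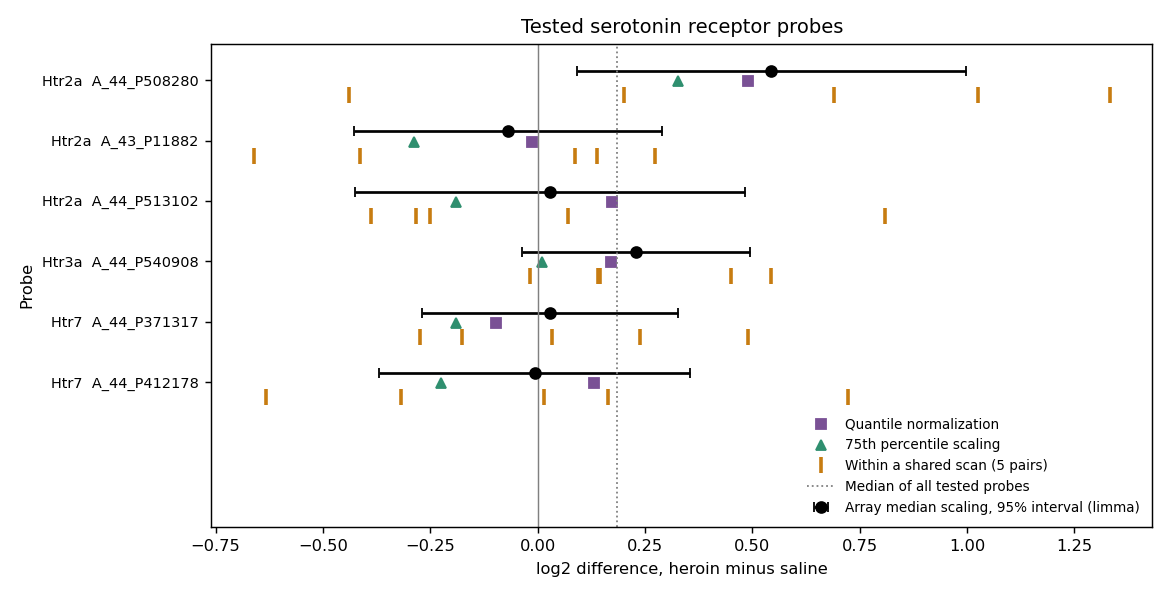
Log2 difference of heroin minus saline rats for the 6 tested receptor probes, with the 95% interval from limma, the values under 2 other scalings and the differences within the 5 shared scans. The interval excludes 0 only for A_44_P508280 of Htr2a, and in the pair numbered 6 that probe gave -0.44.

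The remaining 7 genes were near the background of the arrays, and none was detected in every rat. They were left out of the limma test, and their differences are given with an exact permutation p, which is two-sided throughout. A difference in RNA can be understated at signals this near to the background.

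The Htr1 genes encode inhibitory receptors, of which Htr1a sits on cell bodies and dendrites and Htr1b and Htr1d mainly on axon terminals. Htr1a was detected in 4 of 6 heroin and 5 of 5 saline rats. It read 0.384, 0.342, 0.320, 0.350 and 0.455 array medians in saline replicates 2 to 6, and 0.192 to 0.434 in the heroin rats with a median of 0.338. All but heroin replicates 4 and 6, the 2 in which it was not detected, lay within the saline range. Its log2 difference was -0.17 (standard error 0.20, exact p = 0.506) and was 0.04 after quantile normalization. This probe was also spotted 10 times, and the median SD among spots was 0.332 on the log2 scale, against an SD among rats of 0.429 in the heroin and 0.197 in the saline group.

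Htr1b was detected in 4 heroin and 4 saline rats. It read 0.636, 0.264, 0.403, 0.477 and 0.381 array medians in the saline rats and 0.266 to 0.569 in the heroin rats, so the heroin rats again lay within the saline range. Its log2 difference was -0.02 (exact p = 0.939), and it was 0.17 after quantile normalization. Htr1d was detected in 2 heroin and 3 saline rats, with 0.0826 to 0.386 and 0.0858 to 0.403 array medians, and 2 of its 11 values were at the floor of 5 intensity units. Its log2 difference was -0.02 with a standard error of 0.47 (exact p = 0.968) and turned to 0.18 after quantile normalization. For Htr1a, Htr1b and Htr1d alike, the spread among rats was larger than the difference between the groups.

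Htr5a, the other inhibitory receptor, was detected in 3 heroin and 3 saline rats. It read 0.220 to 0.408 array medians in the heroin rats and 0.358, 0.165, 0.216, 0.481 and 0.261 in saline replicates 2 to 6. The heroin rats lay within the saline range, with a log2 difference of 0.17 (standard error 0.26, exact p = 0.569) that was -0.05 after scaling to the 75th percentile.

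Htr2c, a Gq-coupled receptor whose transcript is edited and which is known above all from the choroid plexus, was detected in 0 of 6 heroin and 2 of 5 saline rats. It read 0.259, 0.462, 0.138, 0.155 and 0.394 array medians in saline replicates 2 to 6, and 0.0667 to 0.240 in the heroin rats, 2 of which were at the floor of 5 intensity units. The 2 detected saline rats, replicates 3 and 6, and saline replicate 2 were above all heroin rats, while the other 2 saline rats were among them. As no heroin rat was above background, only a bound could be had, and the mean log2 signal of the saline rats lay below the mean, over the heroin arrays, of the lowest signal counted as above background, so no fold, difference or test is given.

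The 7 listed choroid plexus markers differed in direction. Folr1, a folate receptor detected in every rat, read 1.16 to 1.46 array medians in the 6 heroin rats and 1.5 to 1.58 in the 5 saline rats, with no overlap. Its log2 difference was -0.26 (limma p = 0.0387, exact p = 0.0108), and -0.32 after quantile normalization, and it did not pass both thresholds. Kcne2, a potassium channel subunit detected in 5 heroin and 5 saline rats, gave -0.46 (exact p = 0.0216). The brighter probe of Otx2, a transcription factor, was detected in 4 heroin and 2 saline rats and gave 0.46 (exact p = 0.476). The other Otx2 probe went the other way in detection, with 0 heroin and 2 saline rats. Ttr and Aqp1 were detected in every rat and gave 0.06 (-0.06 after quantile normalization) and 0.50 (0.37), with limma p of 0.870 and 0.129, while Kl and Clic6 were detected in none. The list summed to 4.71 to 12 array medians in the heroin and 4.88 to 8.06 in the saline rats. The part of that tissue in the Htr2c values was not tested.

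Htr4 and Htr6 both stimulate adenylyl cyclase. Htr4 was detected in 3 heroin and 3 saline rats. It read 0.660, 0.449, 0.240, 0.208 and 0.617 array medians in saline replicates 2 to 6, and 0.226 to 0.465 in the heroin rats with a median of 0.314. The saline rats reached both lower and higher than the heroin rats, and the log2 difference was -0.29 (standard error 0.32, exact p = 0.418). Htr6 was detected in no rat, and 6 of its 11 values were at the floor of 5 intensity units. Its values of 0.0721 to 0.174 array medians therefore give only an upper limit for either group, and no fold is given. Both genes are known from the striatum. Of 8 listed striatal markers 7 were on the array, 6 were tested and 0 passed both thresholds, with sums of 39.1 to 48.1 array medians in the heroin and 30.7 to 61.8 in the saline rats. The part of striatal tissue in the values of these genes was not tested.

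The 4 other serotonin receptor genes on the array were read in the same fit. Htr2b and Htr3b were tested, and neither passed both thresholds. Htr2b, a Gq-coupled receptor best known from outside the brain, read 0.542, 0.732, 0.475, 0.501 and 0.654 array medians in saline replicates 2 to 6 and 0.273 to 0.704 in the heroin rats. Of the heroin rats 4 were below every saline rat, and the log2 difference was -0.41 (standard error 0.21, limma p = 0.0768, exact p = 0.123), or -0.29 after quantile normalization. It was -0.63 after scaling to the 75th percentile, -0.60 after centring on the tested probes and -0.16 with normexp background correction. Htr2b did not pass the 2 thresholds together in 10 of 11 runs without 1 rat and in 13 of 14 other alternatives. In the remaining run of each kind it passed both. Htr3b, which joins Htr3a in the channel, gave a log2 difference of -0.20 with a limma p of 0.370. Htr1f, an inhibitory receptor, was detected in 3 heroin and 3 saline rats and Htr5b in 2 and 2, with log2 differences of -0.29 and -0.07, the latter turning to 0.11 after quantile normalization.

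Beside the receptors, the genes that make, store, take up, break down and transmit serotonin were read from 4 lists, those 4 receptors included. Of 42 listed genes 39 were on the array and 33 were tested. A single gene passed both thresholds, Gnai1, against 2.72% of all tested probes. The median log2 difference of the 33 was 0.21 with 30 of 33 above 0, against 78.7% of all tested probes, and 0.02 after quantile normalization, while that of all tested probes was 0.18 and 0.01.

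Gnai1 encodes an inhibitory G protein alpha subunit, the kind to which the Htr1 receptors couple. It read 1.48, 1.44, 2.04, 3.72 and 1.86 array medians in saline replicates 2 to 6. The heroin rats read 2.66 to 3.47 with a median of 3.05. All heroin rats were above 4 of the 5 saline rats and below saline replicate 5. The log2 difference was 0.63 (standard error 0.21, limma p = 0.00804, adjusted p = 0.263, exact p = 0.0325) and 0.51 after quantile normalization. It was no longer past both thresholds after scaling to the 75th percentile (0.41), with normexp (0.44), after centring on the tested probes (0.44), by the methods' t-test, or without saline replicate 2 (0.52) or saline replicate 3 (0.51). Without saline replicate 5 the difference was 0.86.

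All 17 listed G protein and effector genes were tested, 16 of them above 0 with this scaling, as were 78.7% of all tested probes, with a median log2 difference of 0.20 that was -0.01 after quantile normalization. Only Gnai1 passed both thresholds, and Gnai3, another inhibitory alpha subunit, gave 0.47 with a limma p of 0.0276 and 0.22 after quantile normalization. Kcnj3, a subunit of the potassium channel that these G proteins open, had 4 probes that disagreed. Its brightest probe gave -0.05, while A_44_P247906 gave -0.49 with a limma p of 0.0153 and A_44_P452282 gave 0.54 with a limma p of 0.0158, both past both thresholds in opposite directions.

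Serotonin is made by tryptophan hydroxylase in raphe neurons, whose cell bodies lie outside the cortex. Their transcription factor Fev was detected in no rat, the serotonin transporter Slc6a4 in 1 heroin and 2 saline rats, and the neuronal hydroxylase Tph2 in 4 and 4. With the vesicular transporter Slc18a2, which was detected in all, these raphe markers summed to 0.846 to 1.5 array medians in the heroin and 1.07 to 1.66 in the saline rats. Of the 13 genes for synthesis, storage, uptake and breakdown 12 were on the array, 8 were tested and 0 passed both thresholds. Maob, a monoamine oxidase of glia and serotonin neurons, read 7.22 ± 1.04 (SD, n = 6) array medians in the heroin and 5.61 ± 0.963 (SD, n = 5) in the saline rats. Its log2 difference was 0.37 (standard error 0.15, limma p = 0.0241, exact p = 0.0238), and 0.14 with a limma p of 0.182 after quantile normalization. The related Maoa gave 0.23 and the aldehyde dehydrogenase Aldh2 gave 0.22, which turned to -0.01 and -0.03 after quantile normalization. Ddc, the decarboxylase of serotonin and dopamine synthesis, gave 0.40 with a limma p of 0.118, and the vesicular transporter Slc18a1 gave 0.21, which was -0.0049 after scaling to the 75th percentile. Qdpr, which recycles the hydroxylase cofactor, gave 0.19, turning to -0.03 after quantile normalization. Slc18a2 (0.05) and the low-affinity transporter Slc22a3 (0.04) were both below 0 after scaling to the 75th percentile.

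Of 8 receptor partners and RNA editing genes 6 were on the array, all 6 were tested and 0 passed both thresholds. They include S100a10, an adaptor of Htr1b and Htr4, with a log2 difference of 0.26, and Mpdz, a scaffold of Htr2c, with 0.43 and a limma p of 0.0333. After quantile normalization these were 0.00 and 0.12. Mpdz had no usable spot on the array of saline replicate 5, so its differences come from 6 heroin and 4 saline rats. The editing enzymes Adar and Adarb1, which act on Htr2c transcripts, gave 0.17 and 0.32, with limma p of 0.311 and 0.0865.

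**Figure D4:**
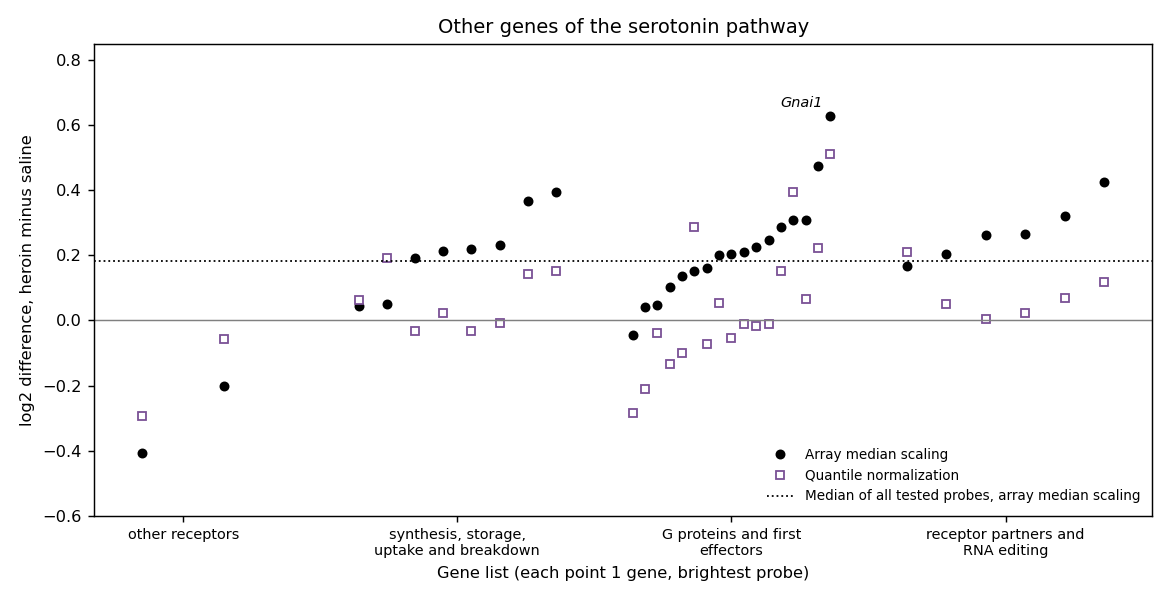
Log2 difference of heroin minus saline rats for the 33 tested genes of the 4 other serotonin lists, 1 point per gene, with array median scaling (filled) and quantile normalization (open), and a dotted line at the median of all tested probes, 0.18. Most filled points lie near that line, and Gnai1 at 0.63 is the only gene past both thresholds.

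Among 8262 other genes with a symbol, those whose pattern over the 11 arrays was most like that of Htr2a after quantile normalization were Rad50, Ube2e3 and Asb3, with Pearson r of 0.937, 0.922 and 0.916. For Htr3a they were Gmnn, Tmco1 and Map1b, with r of 0.94, 0.907 and 0.889. These points share the arrays and their scaling, and the values are a description.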

How the data were processed

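RNA of the medial prefrontal cortex from 6 heroin and 5 saline rats was hybridised as Cy3-labelled cRNA, 1 array per rat. The authors deposited the Feature Extraction output (9.5.1.1 per the file headers), whose processed intensity per spot is background-corrected but not scaled between arrays, with flags for each spot. The authors' deposited GeneSpring table, a ratio per probe and rat, was used as an alternative.

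From the intensities, spots marked as non-uniform or outlying (99 to 231 per array) were dropped. Intensities under 5 were raised to 5, and arrays were scaled by the 50th percentile of their non-control probes, after the study's methods. Log2 was then taken, and spots of a probe were averaged on that scale. A probe was detected where at least 0.5 of its spots were well above background. The 25555 probes detected on all arrays, and usable in at least 2 rats of either group, entered a two-sided limma test (3.58.1, lmFit and eBayes, R 4.3.3), and p was adjusted over them by Benjamini-Hochberg. Differences of probes outside that filter, and their standard errors, come from the same fit over all probes. The methods' t-test assumes unequal variances. Single probes were also compared by an exact permutation test over 462 divisions (smallest p 0.00216). Groups and replicate numbers came from the sample labels. Each rat is 1 sample, and the number of arrays limits the precision. The fits were tested on simulated data with known differences.

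All members, every probe of each and the brightest probe as the gene's value were reported, with the other receptors, the tested genes of synthesis and breakdown, pathway genes past both thresholds, and for the 2 receptors with the smallest p the 3 genes most like them. Probes that disagree within a gene were named too. Gnai3, the cell type markers named and the receptor partners and editing genes fall outside this rule and were named after their values were seen. Members and lists were chosen with earlier results of these data known. Alternatives were 75th percentile scaling, quantile normalization, normexp (offset 50), scaling before the floor, the relative values, marked spots kept, 2 other detection filters, array weights, trended and robust eBayes, the methods' t-test, a block on replicate number or on scan, the mean of a gene's probes and leaving out each rat. Centring on the tested probes was added after the data were seen. Probe sequences and rn3 positions are those of the array files. Same-numbered rats shared a scan, but their deviations correlated at -0.237 to 0.384, so the numbers were not taken as pairs. Whether same-numbered rats were yoked partners is not given in the sample labels. The main test makes no use of the yoking.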

Additional observations from a re-analysis of the deposited data

Results flagged for a closer look

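A single rat stood apart in 1 of 54 groups of values examined (the receptor probes and the named pathway genes, heroin and saline separately). Saline replicate 3 read 0.594 array medians at the Htr2a probe A_43_P11882, while the other 4 saline rats read 0.806 to 0.904, a gap of 0.728 of the whole range by Dixon's criterion at 95%. Chance marks about 1 group in 20.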

How the results depend on the processing

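Htr2a was past both thresholds, as the only receptor gene (1 gene), with the trend and robust options (limma p of 0.0199) and with array weights (0.72, limma p of 0.000518), and in none of the other 13 alternatives (lowest 0.17, for the mean of its probes); leaving out 1 rat gave 0 to 1 receptor genes. The replicate block gave 0 receptor genes, 791 probes past both thresholds and 0.56 for Htr2a, and changed no other count by over 1.5 times. Past both thresholds among all probes were 457 after quantile normalization, 126 with normexp, 1560 without a detection filter, 1066 when detected in every rat of 1 group, 309 by the methods' t-test, 2489 with array weights, and 345 to 2356 without 1 rat (345 without saline replicate 2, 395 without saline replicate 3, 2356 without saline replicate 5). At an adjusted p under 0.05 there were 8429 probes with array weights, and 0 to 1 without 1 rat. Pathway genes past both were 0 with the 75th percentile, normexp, the methods' t-test and centring on the tested probes, 5 with array weights, and 0 to 2 without 1 rat. The causes were not tested.

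Signs turned as follows. Quantile normalization gave Htr1a 0.041, Htr1b 0.17, Htr1d 0.18, Htr7 -0.10, its second probe A_44_P412178 0.13, Htr5b 0.11, Qdpr -0.032, Maoa -0.0079 and Aldh2 -0.032. Array weights gave Htr1b 0.26, Htr1d 0.24, Htr2a A_43_P11882 0.18, Htr7 A_44_P412178 0.18, Slc18a2 -0.21 and Slc22a3 -0.036. The 75th percentile gave Htr2a A_44_P513102 -0.19, Htr5a -0.051, Htr7 -0.19, Qdpr -0.026, Slc18a1 -0.0049, Slc18a2 -0.17 and Slc22a3 -0.17. Centring gave Htr2a A_44_P513102 -0.16, Htr5a -0.024, Htr7 -0.16, Slc18a2 -0.14 and Slc22a3 -0.15. Normexp gave Htr7 -0.015 and Slc18a2 -0.013, scaling before the floor gave Htr1d 0.00035, and the replicate block gave Htr2a A_44_P513102 -0.0083 and Htr5b 0.031. Without 1 rat the ranges that crossed 0 were -0.19 to 0.13 for Htr1b, -0.35 to 0.26 for Htr1d, -0.18 to 0.029 for Htr2a A_43_P11882, -0.13 to 0.16 for Htr2a A_44_P513102, -0.019 to 0.37 for Htr5a, -0.050 to 0.11 for Htr7, -0.10 to 0.13 for Htr7 A_44_P412178, -0.21 to 0.14 for Htr5b, -0.087 to 0.14 for Slc18a2 and -0.20 to 0.23 for Slc22a3. The signs of the brightest probes of Htr2a and Htr3a held in every alternative run. Low signal limits the 7 receptors that were not detected in every rat, and Htr2c and Htr6 have no measured difference.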
